A study of Bos taurus with 32 samples.

Results

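The 100 genes described here were the least variable well-read genes of an RNA-sequencing table of the hypothalamus, pituitary, testicle and adrenal of 8 calves. They were taken from 27607 Ensembl gene IDs. Levels in CPM (the count scaled to a library total of 1e6) were averaged over the 32 libraries, and 8192 IDs had a mean of at least 20 CPM. The 100 of these with the lowest coefficient of variation (CV, the SD over the 32 libraries divided by the mean) make up the list, 1.22% of the eligible genes. The values that chose the list are therefore its low spread over tissues, origins and calves. That spread is given below as a description and not as a finding. None of the 27607 IDs could be paired with a gene symbol, so the genes appear by ID, their functions are not given, and the tissue labels could not be checked against marker genes.

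The calves were Holstein bull calves. In 4 of them (IVP, calves 3208, 3209, 5833 and 5841) the embryo had been produced in vitro. The other 4 (MOET, the controls, calves 3213, 3217, 3218 and 5932) came from embryos conceived in vivo after superstimulation of the ovaries and artificial insemination. Embryos of both origins were carried by recipient cows. Calf 3213 was 144 days old and the other 7 were 98 to 104 days old. Each calf gave 1 poly(A)-selected library per tissue, which makes 8 groups of 4 libraries from separate animals. Library totals ran from 17357283 to 23380330 counts. The tissues were sequenced whole, so fewer cells of a type and less RNA per cell cannot be told apart.

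The hypothalamus directs the pituitary with releasing hormones, and the pituitary in turn drives the testicle and the adrenal cortex. The 4 organs are built from very different cells and much of the RNA of an endocrine gland can come from a handful of hormone or steroid genes. A reference gene is one whose RNA level is taken as fixed, so that other genes can be read against it, as in quantitative PCR. Such a gene is only as fixed as the scale on which it was judged, because RNA sequencing measures shares of a library and not amounts per cell.

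Mean level in the list ran from 20.7 to 706 CPM with a median of 63.1 CPM, against a median of 51.7 CPM in the 8192 eligible genes. CPM is not corrected for gene length, so these are levels per library and are not ranked between genes as amounts of RNA. The smallest count of any gene of the list in any library was 330 reads, and no value was 0. The CV ran from 5.99% to 12.0% with a median of 10.7%, where the eligible genes had a median of 38.6%. Counting error alone would give a gene of the list a CV of 0.827% to 4.83% (median 2.77%). The observed CV was a median of 3.73 times that value and at least 1.67 times it. At the edge of the list the last 3 genes inside had a CV of 11.90%, 11.93% and 12.04%, and the first 3 outside had 12.04%, 12.07% and 12.11%. The edge is thus not a gap.

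**Figure D1:**
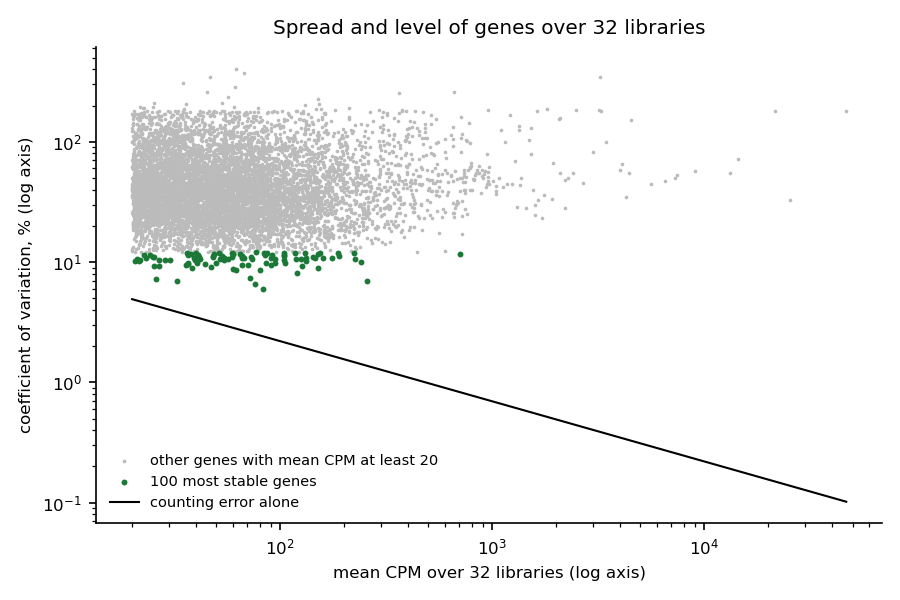
Coefficient of variation over 32 libraries (%, log axis) against mean CPM (log axis) for the 8192 eligible genes. The 100 genes of the list (green) lie at the lower edge, at a CV of 5.99% to 12.0%. The line is the CV that counting error alone would give.

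ENSBTAG00000015187 had the lowest CV of all. In the hypothalamus it stood at 87.7, 85.2, 85.3 and 87.8 CPM in IVP calves 3208, 3209, 5833 and 5841 and at 87.3, 88.1, 80.0 and 90.5 CPM in MOET calves 3213, 3217, 3218 and 5932. In the pituitary it stood at 72.7, 76.2, 74.0 and 77.1 CPM in the same IVP calves and at 81.4, 78.9, 76.1 and 85.8 CPM in the MOET calves. The pituitary of every IVP calf except 3209 and 5841 lay below every MOET pituitary, and those calves reached just above MOET calf 3218. In the testicle it stood at 80.8, 77.4, 86.3 and 75.6 CPM in IVP and 85.9, 83.0, 82.6 and 87.6 CPM in MOET calves, with overlapping groups. In the adrenal it stood at 84.5, 91.2, 87.4 and 79.9 CPM in IVP and 82.7, 81.2, 78.8 and 84.7 CPM in MOET calves, again with overlap. Its highest library was 1.255 times its lowest. Tissue means ran from 77.8 ± 4.23 CPM in the pituitary to 86.5 ± 3.13 CPM in the hypothalamus (SD, n = 8), with the testicle (82.4 ± 4.27) and the adrenal (83.8 ± 4.10) between them. Neighbours in that order differed by less than 1 SD except pituitary and testicle.

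ENSBTAG00000007910 came next, with a CV of 6.57% and tissue means within 1.04-fold of each other. It ran from 68.7 over a median of 74.5 to 79.2 CPM in the hypothalamus and from 67.9 over 76.4 to 94.1 CPM in the pituitary. In the testicle it ran from 67.8 over 77.3 to 79.7 CPM and in the adrenal from 70.7 over 77.5 to 80.3 CPM. Its highest value, 94.1 CPM, came from the pituitary of MOET calf 5932, and the next pituitary, of MOET calf 3213, was at 81.5 CPM. Only 4.49% of its sum of squares lay between tissues and 68.1% lay between calves of the same group.

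The genes with the most reads per library were ENSBTAG00000017246 and ENSBTAG00000013607. The former stood at 825 ± 58.0 CPM in the hypothalamus and at 668 ± 48.3, 645 ± 34.0 and 685 ± 28.1 CPM in the pituitary, testicle and adrenal (SD, n = 8). Its spread was mostly that step, as 74.8% of its sum of squares lay between tissues, and at 14.2 times the counting error its CV of 11.7% stood farthest above it in the list. ENSBTAG00000013607 stood at 267 ± 15.2 and 270 ± 14.8 CPM in the hypothalamus and testicle and at 240 ± 13.5 and 247 ± 5.13 CPM in the pituitary and adrenal. Its CV was 6.95%.

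The highest of the 4 tissue means was 1.03 to 1.34 times the lowest (median 1.21), against a median ratio of 2.43 in the eligible genes. It was within 1.1-fold for 9 genes of the list, within 1.2-fold for 48 and within 1.25-fold for 78. Over single libraries, the highest was within 1.5 times the lowest for 39 genes and within 2 times for all 100. In the eligible genes 0.488% had all libraries within 1.5-fold and 9.18% within 2-fold. Tissue means were within 1.1-fold in 0.183% of them, within 1.2-fold in 1.28% and within 1.25-fold in 2.42%. Tissue means within 1.5-fold were found in 11.7% of them and in all 100 genes of the list. In edgeR's quasi-likelihood test of a difference between tissues over the 32 libraries (Benjamini-Hochberg adjusted p under 0.05), 87 of the 100 genes passed, where 97.9% of the 18242 genes tested did. The rule chose the list on this same spread, so nothing is read from that count beyond its size. With the calf as a block the count was also 87.

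The adrenal held the highest mean for 39 genes of the list and the lowest for 13. The pituitary held the lowest for 37 and the highest for 18. For the eligible genes the adrenal was highest in 32.8% and the pituitary lowest in 34.1%. The testicle was highest for 18 and lowest for 28 genes of the list, where 28.8% and 19.2% of the eligible genes had it so. The hypothalamus was highest for 25 and lowest for 22, against 24.4% and 31.8%.

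The largest ratios of tissue means belonged to ENSBTAG00000009307 and ENSBTAG00000001565, at 1.345 and 1.345. ENSBTAG00000009307 ran from 65.5 over a median of 71.5 to 78.3 CPM in the hypothalamus and from 91.0 over 96.1 to 101 CPM in the adrenal, so that the adrenal and the hypothalamus did not overlap. Its pituitary and testicle means lay between them, with libraries at 81.4 to 91.8 and 75.5 to 91.2 CPM. ENSBTAG00000001565 was lowest in the pituitary, from 90.4 over 99.7 to 112 CPM, and highest in the adrenal, from 126 over 136 to 139 CPM, again without overlap. In the hypothalamus and testicle it ran from 105 to 132 and from 108 to 129 CPM, and these 2 tissues did not differ beyond their spread (115.9 ± 7.96 and 117.5 ± 7.33 CPM).

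**Figure D2:**
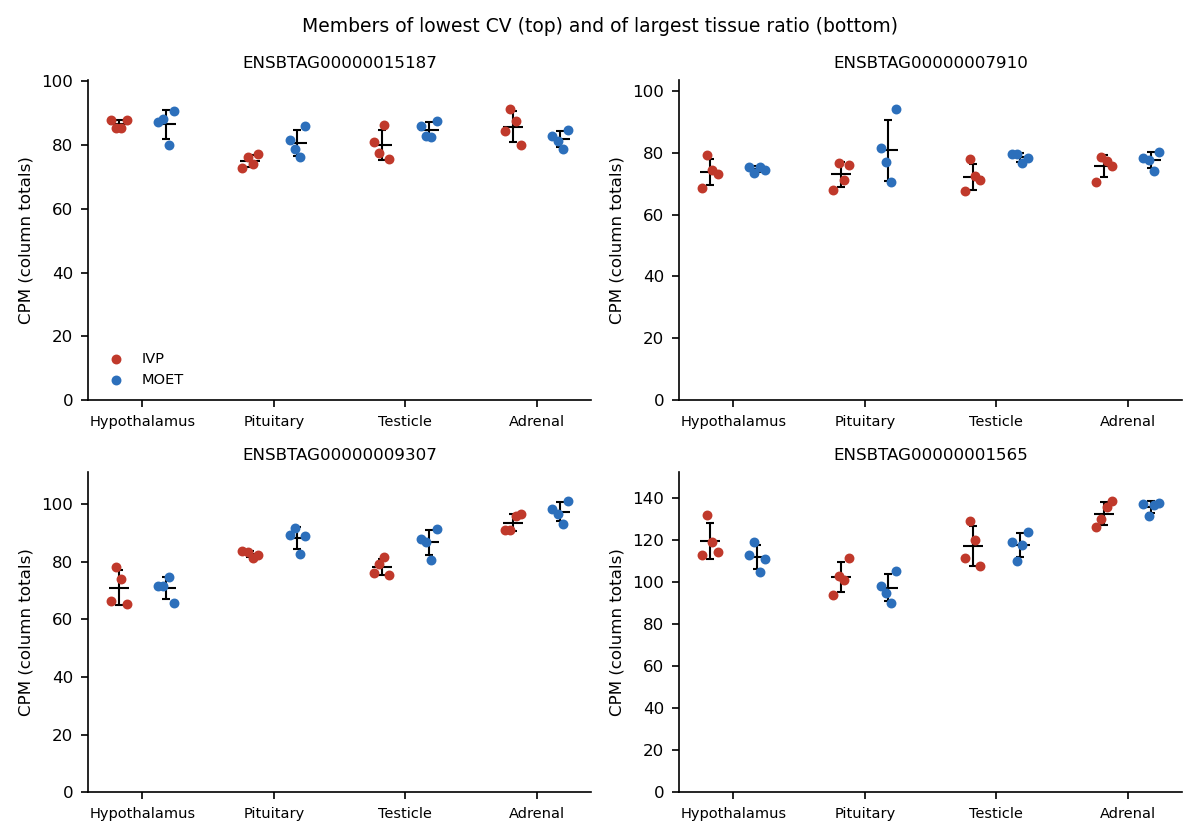
CPM on column totals in each library, by tissue, for the genes of lowest CV (top) and of largest tissue ratio (bottom). Points are calves, red for IVP and blue for MOET, and black bars are the mean and SD of 4. ENSBTAG00000015187 stays between 72.7 and 91.2 CPM throughout, while ENSBTAG00000009307 steps from at most 78.3 CPM in the hypothalamus to at least 91.0 CPM in the adrenal.

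Tissue took a smaller share of the spread in the list than elsewhere. The rule chose the list by low spread over tissues, origins and calves, so these shares and the within-tissue values are a description only. The sum of squares of CPM lay to a median of 48.6% between tissues, 15.8% between origins within tissues and 34.0% between calves of a group. The medians of the eligible genes were 84.6%, 4.78% and 9.92%. Tissue held the largest share for 66 genes of the list, the calf for 28 and the origin for 6. In the eligible genes these were 95.1%, 4.26% and 0.598%. Within a tissue the median CV of the list over 8 libraries was 7.68% (hypothalamus), 7.90% (pituitary), 7.24% (testicle) and 5.75% (adrenal). The eligible genes had medians of 14.8%, 11.2%, 15.5% and 14.4%.

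Ratios between genes of the list do not depend on how libraries are scaled. Over the 4950 pairs, the SD of the log2 ratio of a pair over the 32 libraries ran from 0.08 to 0.31, with a median of 0.19. The mean of this SD against the 99 other genes was lowest for ENSBTAG00000015187, at 0.156, and reached 0.243 in the list. It was 0.160 for ENSBTAG00000007910 and 0.214 for ENSBTAG00000009307.

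The summed level of the 100 genes also varied little on the scale that chose them, and its variation was largest in the pituitary. The sum took between 0.743% and 0.906% of a library. By tissue it was 8604 ± 285 CPM for hypothalami, 8134 ± 479 for pituitaries, 8297 ± 254 for testicles and 8709 ± 161 for adrenals (SD, n = 8). In the pituitary the IVP calves 3208, 3209, 5833 and 5841 had 8002, 8263, 7757 and 8764 CPM and the MOET calves 3213, 3217, 3218 and 5932 had 8148, 7886, 7430 and 8822 CPM. Calf 3218 was thus lowest, and calves 5841 and 5932, 1 of each origin, were highest. The 10 most counted genes of the pituitary moved the other way. They took 34.4%, 32.2%, 35.3% and 27.1% of the IVP and 34.5%, 36.1%, 40.9% and 28.1% of the MOET libraries in the same order. The part of these 10 genes in the variation of the list was not tested.

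A scale that leaves out the genes of extreme ratio changed this picture. TMM factors (trimmed means of M values, from edgeR) set library sizes from the bulk of genes and not from the total. On TMM-scaled totals the CV of the summed level fell from 5.88% to 2.21% over the 8 pituitaries. It rose from 3.31% to 7.25% in the hypothalamus, from 3.07% to 5.26% in the testicle and from 1.84% to 6.74% in the adrenal. Over all 32 libraries it went from 4.52% to 8.19%. The CV of single genes of the list had a median of 11.4% after TMM, where the eligible genes had a median of 37.9%. In the list it ran from 4.95% to 18.2%. For ENSBTAG00000015187 it went from 5.99% to 10.2%, for ENSBTAG00000007910 from 6.57% to 11.2% and for ENSBTAG00000017246 from 11.7% to 17.5%.

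**Figure D3:**
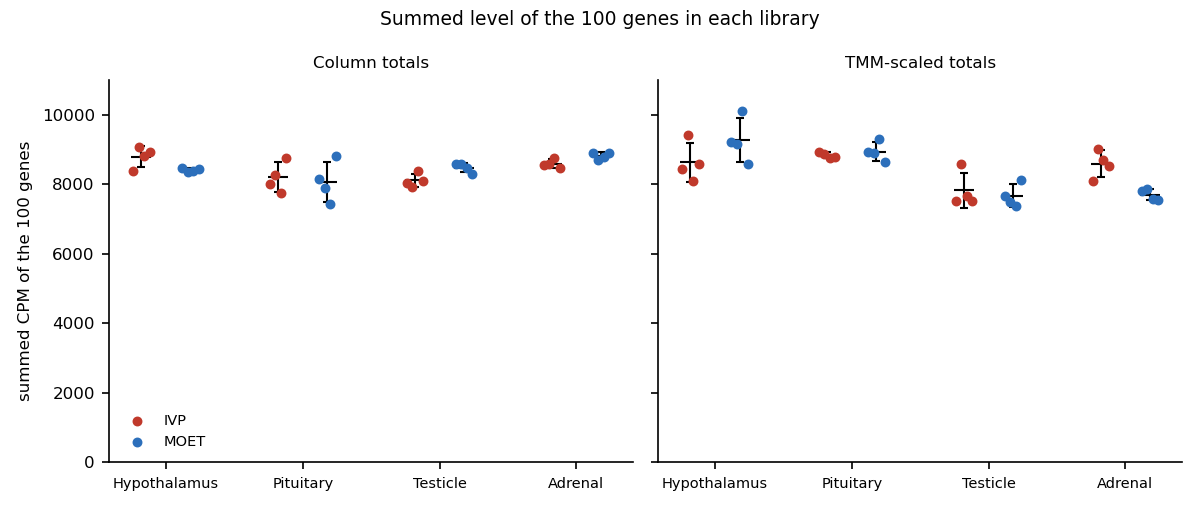
Summed CPM of the 100 genes in each library, by tissue, on column totals (left) and on TMM-scaled totals (right). Points are calves (red IVP, blue MOET) and black bars the mean and SD of 4. On TMM-scaled totals the pituitaries draw together between 8631 and 9303 CPM, and the IVP adrenals (8095 to 9029 CPM) separate from the MOET adrenals (7546 to 7866 CPM).

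The comparison of IVP with MOET calves asks whether the origin of the embryo left a difference in these organs. All 100 genes passed the filter on low counts in each tissue. In edgeR's quasi-likelihood test with TMM factors (Benjamini-Hochberg adjusted p under 0.05 over all genes tested), 35 of the 100 genes passed in the adrenal, all 35 higher in IVP calves. With column totals as the library size 13 passed, 3 higher and 10 lower. Of all 15437 genes tested in the adrenal 39.3% passed with TMM factors, 20.8% higher and 18.5% lower. With column totals 41.9% passed, 9.39% higher and 32.5% lower. The rule used these libraries, so nothing is read from the counts of the list against these percentages.

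In the adrenal the median log2 fold change of IVP over MOET in the list was 0.14 with TMM factors, with 89 of 100 genes above 0. With column totals the median was -0.05, with 32 above 0. The median over all genes tested was 0.00 with TMM factors, and column totals shifted it by -0.19. A change of library size moves log2 fold changes of all genes in a tissue nearly alike, so the list moved alike by construction. Its summed level was 8596 ± 118 CPM in IVP and 8822 ± 110 CPM in MOET adrenals on column totals (SD, n = 4), with 1 IVP calf, 5833 at 8762 CPM, above the lowest MOET calf, 3217 at 8692 CPM. On TMM-scaled totals the sums were 8585 ± 389 and 7699 ± 164 CPM and did not overlap. The adrenal test had TMM factors of its own, computed on the 8 adrenal libraries. The factors behind the TMM-scaled sums, computed over all 32 libraries, ran from 0.948 to 1.054 in IVP and from 1.102 to 1.178 in MOET adrenals. The 100 most counted genes took 30.2 ± 0.395% and 26.3 ± 1.04% of these libraries, and the part of that difference in the counts above was not tested. The count of 35 was 5 without IVP calf 5833, 8 without MOET 3218, 9 without MOET 3213, 13 without MOET 5932 and 22 without MOET 3217 or IVP 5841. The share of all genes that passed fell alongside from 39.3%, to 16.1%, 15.6%, 20.7%, 19.9%, 32.6% and 25.6% in that order. Without IVP 3208 or IVP 3209 the count rose to 48 and 37, where 8234 of 15672 and 6368 of 15628 genes passed.

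The largest rises in the adrenal stayed above 0 with TMM factors and with column totals, but were smaller with column totals. These genes were named for the highest fold changes in these same libraries. ENSBTAG00000019010 stood at 22.36, 29.13, 25.50 and 22.99 CPM in IVP calves 3208, 3209, 5833 and 5841 and at 20.34, 19.75, 20.60 and 20.04 CPM in MOET calves 3213, 3217, 3218 and 5932. Every IVP adrenal was above every MOET adrenal. Its log2 fold change was 0.50 (SE 0.11) with TMM factors and 0.31 (SE 0.10) with column totals. ENSBTAG00000010297 stood at 54.2, 63.8, 60.0 and 57.4 CPM in IVP and at 50.3, 49.9, 48.8 and 50.1 CPM in MOET adrenals, again without overlap. Its log2 fold change was 0.43 (SE 0.08) with TMM factors and 0.24 (SE 0.06) with column totals. The same gene had the lowest fold change of the list in the hypothalamus, at 47.3, 53.4, 44.3 and 48.3 CPM in IVP and 59.2, 60.3, 62.6 and 52.8 CPM in MOET calves. There IVP calf 3209 lay just above MOET calf 5932, and the log2 fold change of -0.45 (SE 0.13) with TMM factors did not pass. With column totals the lowest log2 fold change of any gene of the list in the hypothalamus was -0.28. The fold changes of ENSBTAG00000010297 thus had opposite signs in the 2 tissues at an overall CV of 10.7%, and that difference between tissues was not tested. The gene of lowest CV, ENSBTAG00000015187, had an adrenal log2 fold change of 0.26 (SE 0.07) with TMM factors, which passed, and of 0.07 (SE 0.06) with column totals, which did not. Without MOET calf 3213, 3218 or 5932 or IVP calf 5833 it did not pass with TMM factors either, at log2 fold changes of 0.26, 0.24, 0.25 and 0.26.

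In the pituitary 16 genes of the list passed, 3 higher and 13 lower in IVP calves, where 15.3% of the 15807 genes tested passed, 7.51% higher and 7.78% lower. With column totals 0 passed in edgeR, where 2.18% of all genes passed (1.47% higher, 0.709% lower). On that scale 8 genes of the list were at an unadjusted p under 0.05, where 21.2% of all genes were. DESeq2 with its own size factors called 20 genes of the list and 18.1% of all genes. The median log2 fold change of the list was -0.02 with TMM factors and 0.04 with column totals. ENSBTAG00000021725 was at 82.1, 88.5, 87.2 and 92.2 CPM in IVP and 98.5, 96.0, 85.5 and 111 CPM in MOET pituitaries. Its groups overlapped on that scale through MOET calf 3218, and the log2 fold change was -0.21 (SE 0.04) with TMM factors, which passed, against -0.16 with column totals, which did not. It did not pass without MOET calf 3213 (log2 fold change -0.22). In the hypothalamus its log2 fold change of -0.35 (SE 0.15) with TMM factors was the lowest after that of ENSBTAG00000010297 and did not pass. With the summed counts of the 100 genes as library size 13 genes of the list passed, 6 higher and 7 lower, where 14.5% of all genes did (9.02% higher, 5.52% lower). The count of 16 was 0 without MOET calf 3213, 3 without IVP 3208 and 9 without IVP 3209, and the share of all genes that passed was then 2.37%, 4.91% and 8.24%. Without MOET 3217, MOET 3218, IVP 5833 and IVP 5841 it was 11, 11, 11 and 12. Of all genes 1992, 1885, 1400 and 2365 then passed, of 15910 to 15962 tested. Without MOET 5932 the count rose to 20, where 2822 of 15913 genes passed.

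In the hypothalamus 0 genes of the list passed in edgeR and in limma voom, where 0.056% of the 16066 genes tested did in edgeR (0.0498% higher, 0.00622% lower). At an unadjusted p under 0.05 in edgeR there were 13 genes of the list, where 24% of all genes tested were. DESeq2 called 6 genes of the list and 7.63% of all genes. The median log2 fold change was -0.09 with TMM factors, with 21 genes above 0, and 0.07 with column totals, with 73 above 0. In the testicle 0 genes passed in edgeR, voom and DESeq2, where 0.00612% of the 16352 genes tested passed in edgeR and in voom and 1.51% in DESeq2. In edgeR 3 genes of the list were at an unadjusted p under 0.05, where 9.04% of all genes were. The median was 0.04 with TMM factors (69 above 0) and -0.08 with column totals (24 above 0). Column totals moved the median of all genes tested by 0.16 (hypothalamus), 0.06 (pituitary) and -0.11 (testicle). That of the list moved nearly alike, as a change of library size makes it do. In the list 51 genes passed in none of the 4 tissues with TMM factors, as did 43.9% of the 8070 eligible genes that were tested in all 4.

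**Figure D4:**
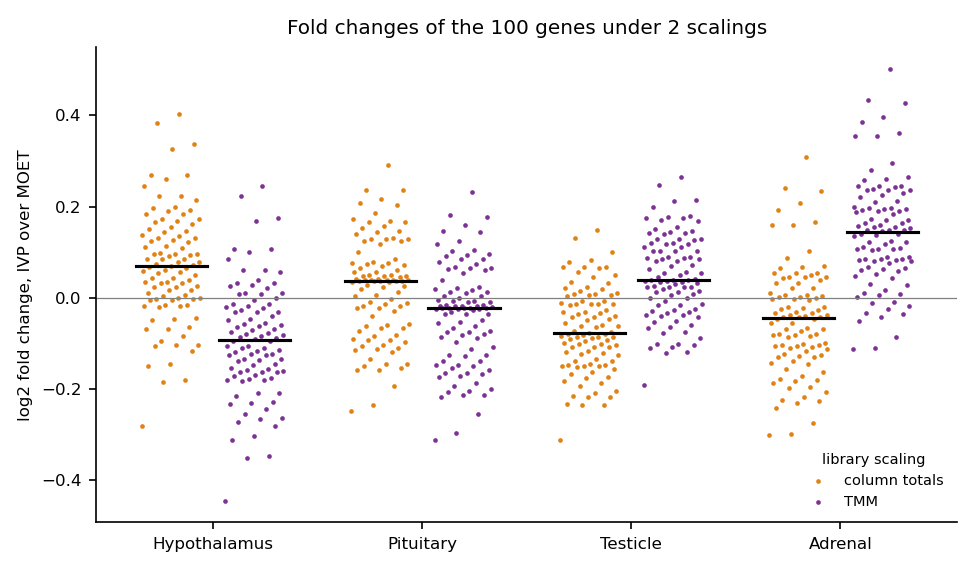
Log2 fold change of IVP over MOET for each of the 100 genes (points) in each tissue, with column totals (orange) or TMM factors (purple) as the library scale. Black lines are medians. The median moves from -0.05 to 0.14 in the adrenal and from 0.07 to -0.09 in the hypothalamus.

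On column totals the values of the 4 IVP and 4 MOET calves did not overlap for 22 genes of the list in the hypothalamus with IVP higher (10.6% of the eligible genes) and for 0 with IVP lower (2.42%). In the adrenal there were 4 with IVP higher (11.4%) and 22 lower (34.8%). On TMM-scaled totals the adrenal had 45 with IVP higher (26.8%) and 1 lower (18.2%), and the hypothalamus 4 higher (4.59%) and 9 lower (5.82%). The pituitary had 6 higher (8.56%) and 3 lower (4.36%) on column totals and 9 higher (15.3%) and 18 lower (12.1%) on TMM-scaled totals. The testicle had 2 higher (1.04%) and 11 lower (6.25%), and then 4 (3.08%) and 5 (3.65%).

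Used as the library scale themselves, the 100 genes gave results between those of column totals and TMM factors in the adrenal. With their summed counts as the library size 6210 genes passed in the adrenal, 1796 higher and 4414 lower in IVP calves. With TMM factors 6068 passed, 3205 higher and 2863 lower. In the pituitary 2299 passed, 1426 higher and 873 lower, against 2417, 1187 and 1230 with TMM factors. Of the 100 genes themselves 13 passed in the adrenal on their own scale, 5 higher and 8 lower, where 40.2% of all genes did (11.6% higher, 28.6% lower). The scale of the list differed from the TMM scale by -0.19 to 0.27 on the log2 scale over the 32 libraries. Its mean difference was -0.13 ± 0.03 in MOET and 0.03 ± 0.07 in IVP adrenals, and 0.14 ± 0.10 in MOET and 0.04 ± 0.09 in IVP hypothalami (log2, SD, n = 4).

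Lists chosen on some of the libraries were then measured in the libraries that had not been used. When the rule was applied to the 16 MOET libraries alone, the 100 genes chosen had a median CV of 9.63% there and of 12.6% in the 16 IVP libraries, where all genes eligible had 40.0%. Of these 100, 89 were in the lowest 10% of eligible genes by CV in the IVP libraries. When it was applied to the IVP libraries alone, the median CV was 9.49% there and 12.8% in the MOET libraries, against 36.9% for all eligible genes, and 93 were in the lowest 10%. Both sets of libraries held the same 4 tissues, and tissue held the largest share of the sum of squares for 95.1% of the eligible genes. Between the origins the mean level of all eligible genes shifted by a median of only 0.07 (absolute log2 ratio). A low CV in calves of 1 origin was therefore likely to carry over to the other by construction. Nothing is read from this split about stability beyond these tissues.

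Lists chosen on 3 tissues had a median shift of the mean level in the fourth of 0.41 (hypothalamus), 0.35 (pituitary), 0.25 (testicle) and 0.32 (adrenal), given as the absolute log2 ratio of the mean in that tissue to the mean over the other 3. All eligible genes had median shifts of 0.57, 0.55, 0.48 and 0.52. Within 1.25-fold lay 41, 47, 59 and 50 of the 100 genes, against 29.5%, 31.3%, 36.1% and 32.3% of the eligible genes. By CV within the left-out tissue 34, 17, 32 and 39 of the 100 genes were in the lowest 10% of eligible genes, fewer than the 89 and 93 above, where the CV ran over 4 tissues. The largest shift was 2.18 on the log2 scale, in the hypothalamus. These lists shared 38, 41, 51 and 41 genes with the list described here, and each left-out tissue came from the same 8 calves. Nothing is therefore read from them about the list itself or about other calves.

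How many of the 100 genes remained changed with the scale, the tissues and the calves used. Without any 1 calf 87 to 96 of them remained, and 75 remained whichever calf was left out. Without 1 tissue 38 to 51 remained. On TMM-scaled totals 35 remained, with DESeq2 size factors 28, and 24 were on all 3 lists. The lists made with TMM and with DESeq2 shared 78 genes. ENSBTAG00000015187 ranked 102nd after TMM and 152nd with DESeq2 size factors, outside both lists. ENSBTAG00000013607 ranked 80th after TMM and 111th with DESeq2 size factors.

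**Figure D5:**
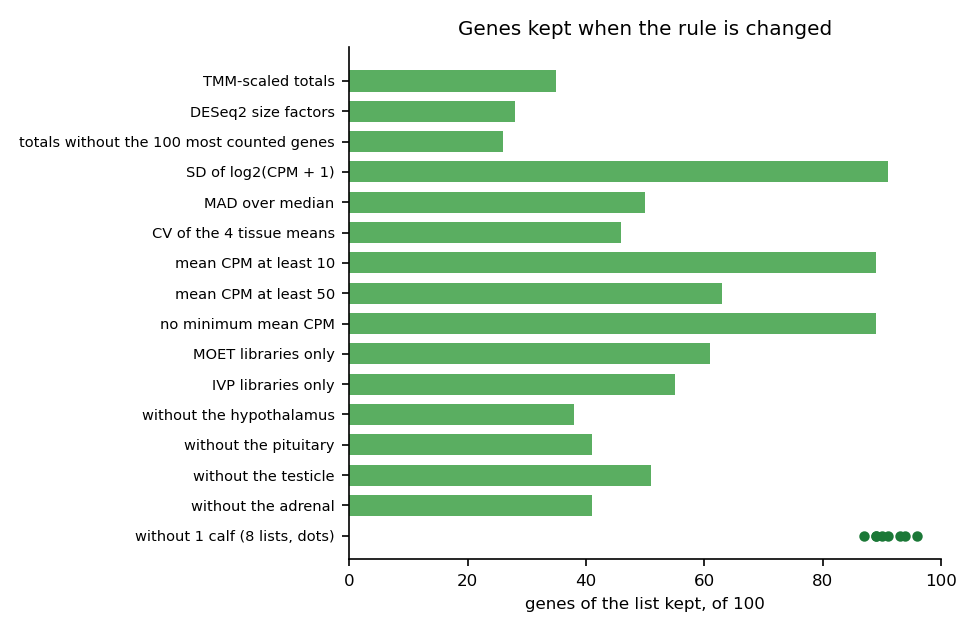
Number of the 100 genes that remain when the rule is changed in 1 respect (bars) or when 1 calf is left out (8 dots, 87 to 96 genes). Changes of library scale keep 26 to 35 genes and leaving out a tissue keeps 38 to 51.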

How the data were processed

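Poly(A)-selected RNA of 4 tissues from 8 calves was sequenced without strand information, paired-end, per the labels' protocols. STAR 2.7, HTSeq and the build bosTau9 are listed in the submitters' processing notes. Annotation release and counting options: not given in the sources used here. What the authors deposited are raw counts of 27607 Ensembl IDs. No row lacked a gene name and 0 columns belonged to another series. Reads of overlapping genes on opposite strands, or of near-identical copies, cannot be told apart.

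CPM, the CV and the list of 100 genes were computed from the counts. Within each tissue IVP and MOET calves were compared by the quasi-likelihood test of edgeR (filterByExpr with minimum count 10 and minimum total count 15, TMM factors, robust dispersion), with Benjamini-Hochberg adjustment at 0.05. The TMM factors of these tests were computed within the tissue, while TMM-scaled totals used factors computed over all 32 libraries. Standard errors are the absolute log2 fold change over the root of F. Differences between tissues were tested over 32 libraries with origin as a covariate. The 4 libraries of a calf share its number in the labels, which pairs tissues, so the calf as a block was an alternative. The other alternatives were DESeq2, limma voom, other scalings, no filter and each calf left out. Fits were tested on simulated data.

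The members and lists were chosen with earlier results of these data known. Named genes were at most 2 each of lowest CV, highest CPM, highest and lowest fold change of IVP over MOET in any tissue and largest tissue ratio. The planned lists of classic reference genes, functional classes, tissue markers and promoter motifs need symbols, of which 0 matched, and were not run. Library totals of 17357283 to 23380330 counts and 4 calves per group set the precision. Among 48 pairs of libraries of a group 0 were identical, and chi-square per degree of freedom was 5.21 to 203. Python 3.11.15 with matplotlib 3.10.9 drew the figures, and R 4.3.3 ran DESeq2 1.42.0, limma 3.58.1 and edgeR 4.0.16.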

Additional observations from a re-analysis of the deposited data

Results flagged for a closer look

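Values of 1 calf stood apart from the other 3 of its group (a gap to the nearest above Dixon's 95% critical value for 4 samples) in 3 of 80 groups of 4 values, over the named genes and the summed level of the list. Chance flags about 1 in 20 such groups, which is 4.0 of 80. ENSBTAG00000017246 was at 735.5 CPM in the pituitary of IVP calf 5841 and between 607 and 627 CPM in the other 3 IVP pituitaries. The same gene was at 646 CPM in the adrenal of MOET calf 5932, and between 681 and 688 CPM in the other 3 MOET adrenals. ENSBTAG00000001565 was at 131 CPM in the adrenal of MOET calf 3217 against 137 to 138 CPM in the others.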

How the results depend on the processing

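Of the 100 genes 35 remained on TMM-scaled totals, 28 with DESeq2 size factors, 26 with totals without the 100 most counted genes, 50 with the median absolute deviation over the median in place of the CV, and 46 with the CV of the 4 tissue means. All 100 were still among the 1000 genes of lowest CV on TMM-scaled totals and with DESeq2 size factors. With a minimum mean of 50 CPM 63 remained, which are the 63 whose mean reaches it. On MOET libraries alone 61 remained and on IVP libraries alone 55. Without the hypothalamus, pituitary, testicle or adrenal 38, 41, 51 and 41 remained, and without 1 calf 87 to 96. The cause was not tested in any of these. The adrenal count of 35 (39.3% of all genes tested) was 13 with column totals (41.9%). It was 13 with the summed counts of the 100 genes as library size (5 higher and 8 lower, 40.2% of all genes). Without 1 calf it was 5 (without IVP 5833, 16.1%) to 48 (without IVP 3208, 8234 of 15672 genes). The pituitary count of 16 (15.3% of all genes) was 0 with column totals (2.18%). Without 1 calf it was 0 (without MOET 3213, 2.37%) to 20 (without MOET 5932, 2822 of 15913 genes). The hypothalamic count of 0 (0.056% of all genes) was 6 in DESeq2 (7.63%) and 0 without any 1 calf (1 to 44 of all genes passed). The testicular count of 0 (0.00612% of all genes) stayed 0, also in DESeq2 (1.51%). The share of higher among all called genes moved with scaling, from 52.8% with TMM to 22.4% with column totals in the adrenal and from 49.1% to 67.5% in the pituitary. All genes called in the pituitary numbered 345 with column totals. The count between tissues was 87 in the main fit (97.9% of all genes) and with the calf as a replicate block (17868 of 18242 genes). It was 83 to 92 in the other fits, where 17845 and 17830 of 18242 genes passed. Without 1 calf it was 77 (without MOET 3213, 17875 of 18442 genes) to 85 (without IVP 3209, 17957 of 18375 genes). The origin groups hold different calves, so no other comparison has a block. The TMM values of the summed level, the median CV and the groups without overlap were added after the data were seen. Counting error gives the genes of the list a CV of 0.827% to 4.83%, and its part in the order of the list was not tested.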
